A study of Mus musculus with 8 samples.

Results

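Kruppel-like factors are transcription factors that bind GC-rich and CACCC-type DNA through a block of C2H2 zinc fingers at the C-terminal end, while the N-terminal parts differ and recruit either activators or repressors. Klf2 and Klf4 are the flow-induced factors of the vessel wall, switched on in endothelium through the kinases encoded by Map3k3, Map2k5 and Mapk7 and the MEF2 factors, and Klf9 and Klf15 are known glucocorticoid-induced genes. In lung, Klf5 is best known from epithelium and Klf2 and Klf4 from endothelium. The 10 genes described here are Klf2, Klf3, Klf4, Klf5, Klf6, Klf7, Klf9, Klf10, Klf13 and Klf15, found by their symbols among the 25509 mouse genes of the count table, which holds 17 Klf genes in all. They were taken by name, and all 10 had enough reads to be tested.

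The RNA came from lungs of 4 wild-type mice of the strain labelled C57Bl6/J, numbered 2, 7, 8 and 10, with no treatment named and no age given in the sources used here. From each digested lung, cells negative for CD45, CD326 and CD31 were sorted by surface CD249, the peptidase encoded by Enpep, into a CD249+ and a CD249− fraction of equal cell number. That makes 4 libraries per fraction, paired by lung. The comparison asks how RNA levels differ between the CD249+ and the CD249− fraction, both labelled fibroblasts.

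Library totals ran from 23011383 to 31906414 estimated counts, with 15456 to 16526 genes detected. Levels are given as CPM, the usual depth-scaled count with TMM factors applied to the library totals. A gene is said to rise or fall in CD249+ cells when edgeR's quasi-likelihood test, fitted without a term for mouse, gave an adjusted p under 0.05 over all 14524 genes tested. Of those genes 30.8% were called, 16.9% higher and 13.9% lower in CD249+ cells, and the split was 2106 higher and 2689 lower (14.5% and 18.5%) with scaling by library size, against 2455 and 2013 with TMM. Enpep stood at 8.98 ± 5.62 CPM in CD249− and 241 ± 64.8 CPM in CD249+ cells (SD, n = 4), in the direction of the labels. Of 10 general fibroblast genes 9 rose in CD249+ cells, and none was at 0 in any library. The fibroblast sum was 15743 to 33900 CPM in CD249− and 43455 to 77190 CPM in CD249+ libraries. Detection of these genes does not show that the CD249− cells were all fibroblasts. All 24 endothelial genes of a marker list, Pecam1 of the CD31 gate among them, were detected in every library and fell in CD249+ cells, by 1.21 to 2.05 on the log2 scale. Their summed level was 24014 to 32096 CPM in CD249− and 7319 to 14485 CPM in CD249+ libraries (exact permutation p = 0.0286, and 0.0572 adjusted over 8 such sums). The unadjusted p is the smallest that 4 against 4 libraries allow. The permutation shuffled libraries without regard to mouse, so it ignores the pairing. In a bulk sample, fewer cells of a type and less RNA per cell cannot be told apart.

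Promoter sequences are shown for the gene with the highest level, Klf2, for its endothelial partner Klf4, and for Klf15, the member that rose most. They are the bases before the annotated start in RefSeq's GRCm38.p6 (Klf2 on the plus strand at chr8:72318812-72319032, Klf4 on the minus strand at chr4:55532476-55532725, Klf15 on the plus strand at chr6:90462326-90462575), written 5′ to 3′ with the Klf2 stretch ending where the GENCODE gene begins. Capitals mark the match to the MEF2 consensus in Klf2 and the CACGTG boxes in Klf4 and Klf15.
Klf2: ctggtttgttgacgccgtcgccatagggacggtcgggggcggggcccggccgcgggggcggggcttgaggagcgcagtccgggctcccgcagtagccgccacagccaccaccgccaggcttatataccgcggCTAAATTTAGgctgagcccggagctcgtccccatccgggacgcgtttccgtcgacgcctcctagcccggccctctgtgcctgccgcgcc
Klf4: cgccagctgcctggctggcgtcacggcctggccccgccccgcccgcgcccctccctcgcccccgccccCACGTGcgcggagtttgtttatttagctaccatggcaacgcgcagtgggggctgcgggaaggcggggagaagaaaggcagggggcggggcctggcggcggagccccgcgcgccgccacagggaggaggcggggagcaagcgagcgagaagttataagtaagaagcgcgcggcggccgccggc
Klf15: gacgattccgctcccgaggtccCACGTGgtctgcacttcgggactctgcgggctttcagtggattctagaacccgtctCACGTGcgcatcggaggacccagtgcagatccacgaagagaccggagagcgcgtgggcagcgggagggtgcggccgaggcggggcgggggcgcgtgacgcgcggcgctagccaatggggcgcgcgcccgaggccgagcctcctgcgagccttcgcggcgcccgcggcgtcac

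RefSeq promoter windows, 250 bases before to 50 after the start, were held for 8 of the 10 members, all but Klf5 and Klf10. Each was searched on both strands, and matches to different motifs may overlap. The MEF2 consensus was found in the window of Klf2 and in no other member's, against 3.19% of all 32851 promoters. It lies at -118 from the RefSeq start of Klf2, which is downstream of the end of the stretch printed above. CACGTG, the E-box that clock factors bind, was found in the windows of Klf4, Klf6 and Klf15, with 3 matches in Klf15, and in 7.15% of all promoters. Of these 3 genes Klf15 rose, Klf4 fell, and Klf6 missed the threshold. GGGCGG was in 7 of 8 members' windows (35.7% of all promoters) and CACCC, the motif of the family itself, in 6 of 8 (57.5%). TGACTCA, TGACGTCA, the glucocorticoid response element and the CArG box matched none of the 8, and 5.2%, 1.79%, 0.00913% and 1.63% of all promoters.

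Of the 10 factors, 2 rose in CD249+ cells, 5 fell and 3 did not pass, beside shares of 16.9% and 13.9% among all genes tested. The median log2 difference of the 10 was -0.32, beside -0.02 for all genes. Klf15 rose 7.67-fold. Klf2, Klf7, Klf4, Klf3 and Klf13 fell, from 2.21-fold for Klf2 to 1.36-fold for Klf13, and Klf9 rose 1.28-fold. Most alternative fits did not keep the call of Klf9, and all that lost it were without a block. A fit with mouse as a block gave 2 higher and 5 lower members again, beside 19.3% and 17.1% of all genes. So did DESeq2 (19.7% and 16.2% of all genes), limma-voom (17.1% and 14.1%), RLE size factors (17.2% and 13.4%) and the fit with no filter on low counts (13% and 10.1%). With scaling by library size 1 member rose and 5 fell.

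**Figure D1:**
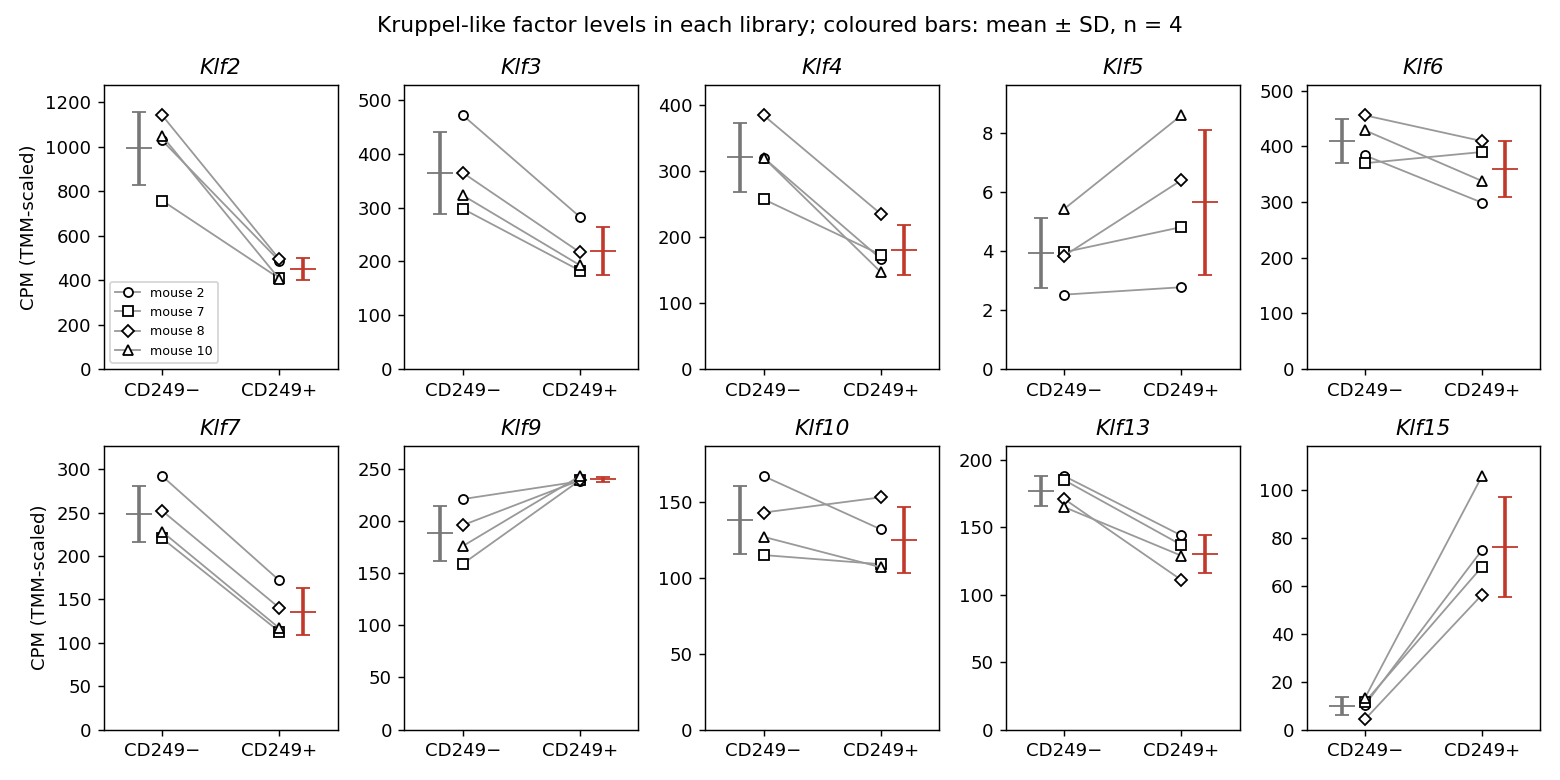
TMM-scaled CPM of each of the 10 factors in the 4 CD249− and 4 CD249+ libraries, with lines joining the libraries of a mouse and coloured bars for mean ± SD. The fractions do not overlap for Klf2, Klf3, Klf4, Klf7, Klf9, Klf13 and Klf15, and overlap for Klf5, Klf6 and Klf10.

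Klf2 (chromosome 8, 72319033 to 72321656, plus strand, GENCODE M21 on GRCm38) is the activator that keeps endothelium quiescent under flow. In mice 2, 7, 8 and 10 it stood at 1029, 758, 1142 and 1049 CPM in CD249− cells. The CD249+ libraries gave 487, 408, 495 and 406 CPM. Every CD249+ library lay below every CD249− library, a pattern seen in 15.8% of all genes tested. The mean fell from 994 ± 165 to 449 ± 48.8 CPM (SD, n = 4), a log2 difference of -1.15 (SE 0.15, edgeR adjusted p = 0.00035).

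Klf4 (chromosome 4, 55527143 to 55532466, minus strand), which shares many endothelial targets with Klf2 and also represses smooth muscle genes, fell as well. Its CD249− libraries stood at 319.9, 257, 384 and 319.9 CPM and its CD249+ libraries at 167, 173, 235 and 147 CPM. The log2 difference was -0.83 (SE 0.17, edgeR adjusted p = 0.00426), and the fractions did not overlap. The drop was widest in mouse 10, at -1.12, and narrowest in mouse 7, at -0.57, and within mice 7 and 8 alone Klf4 gave -0.62 and was not called (adjusted p = 0.101). Mouse 8 had the highest level of Klf2, Klf4 and Klf6 in both fractions.

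Klf7 (chromosome 1, 64029447 to 64122282, minus strand), an activator known from neurons and as a brake on fat cell formation, stood at 292, 220.3, 252 and 228 CPM in CD249− and 172, 113, 140.4 and 117 CPM in CD249+ libraries. It fell by 0.87 on the log2 scale (SE 0.15, edgeR adjusted p = 0.00196), with within-mouse differences from -0.97 to -0.76. Klf7 shares 3196 exon bases with the antisense gene Gm26649, which was listed at 0 in every library, and the libraries carry no strand.

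Klf6 and Klf5, the remaining members of the activator group, did not pass. Klf6 (chromosome 13, 5861482 to 5870394, plus strand), an injury- and growth-factor-induced factor, had 384, 370.0, 456 and 429 CPM in CD249− and 299, 390.1, 409.7 and 338 CPM in CD249+ cells (log2 difference -0.19, SE 0.13, edgeR adjusted p = 0.29), lower in 3 mice and higher in mouse 7. Klf5 (chromosome 14, 99298691 to 99315036, plus strand), a growth-promoting factor of epithelium, was the least abundant member, with 76 to 251 counts per library. It stood at 2.52, 3.96, 3.84 and 5.43 CPM in CD249− and 2.77, 4.81, 6.4 and 8.6 CPM in CD249+ cells, overlapping but higher within each of the 4 mice (log2 difference 0.52, SE 0.39, edgeR adjusted p = 0.353). Its value fell to 0.24 without the CD249+ library of mouse 10. That mouse had the highest Klf5 level and the highest summed level of 16 epithelial genes in both fractions, 1127 CPM in CD249− and 10825 CPM in CD249+ cells, beside 437 to 529 and 675 to 1288 CPM in the other mice. Most of the 10825 CPM came from the surfactant genes Sftpc (7551 CPM) and Sftpa1 (1889 CPM). Of 15 epithelial genes tested 5 rose, 2 fell (Krt19 and Hopx) and 8 did not pass, Epcam among them (0.10, edgeR adjusted p = 0.894). The part of epithelial RNA in the Klf5 level was not tested.

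Klf3 (chromosome 5, 64803388 to 64832901, plus strand) is a repressor that works through the C-terminal binding proteins and opposes fat cell formation. It had 472, 298, 365 and 323 CPM in CD249− and 283, 183, 217 and 193 CPM in CD249+ cells, and mouse 2 was the highest in both fractions. The log2 difference was -0.74 (SE 0.18, edgeR adjusted p = 0.0113). Within mice 2, 7, 8 and 10 the differences were -0.74, -0.71, -0.75 and -0.75, a range of 0.04, where the median range over 9964 genes of at least 10 CPM was 0.50. With mouse as a block the difference was again -0.74 (edgeR adjusted p = 5.33e-05). In fits without a block, leaving out mouse 8 ended the call (-0.73, edgeR adjusted p = 0.0672).

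Klf9, Klf10 and Klf13 are repressors that bind the Sin3 corepressor. Klf13 (chromosome 7, 63886351 to 63938915, minus strand), known from lymphocytes and heart, stood at 188, 185, 171 and 165 CPM in CD249− and 144, 137, 111 and 129 CPM in CD249+ cells. It fell by 0.45 on the log2 scale (SE 0.10, edgeR adjusted p = 0.00799), lower in all 4 mice and without overlap. Klf10 (chromosome 15, 38291463 to 38300706, minus strand), the TGF-beta inducible early gene, gave 167, 115, 143 and 127 CPM against 132, 109, 153 and 107 CPM. Those ranges overlapped (log2 difference -0.14, SE 0.15, edgeR adjusted p = 0.527), and mouse 8 was higher in CD249+ cells while the other mice were lower.

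Klf9 (chromosome 19, 23141226 to 23168134, plus strand), a target of the glucocorticoid receptor, moved the other way. It had 221, 159, 196 and 176 CPM in CD249− and 238, 239, 239 and 243 CPM in CD249+ cells, so the fractions did not overlap, a pattern in this direction seen in 17.8% of all genes. The log2 difference was 0.35 (SE 0.11, edgeR adjusted p = 0.0351). With mouse as a block it was 0.36 (edgeR adjusted p = 0.0154). DESeq2, limma-voom, RLE size factors and the fit with no filter on low counts also kept the call. Of 12 fits without a block that left out a library or a mouse, 3 kept the call (the CD249− or CD249+ library of mouse 2, or both). The other 9 lost the call (edgeR adjusted p = 0.0642 to 0.167). It was also lost with scaling by library size (0.26, adjusted p = 0.0866), which moves the median of all genes from -0.02 to -0.12.

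Klf15 (chromosome 6, 90462576 to 90475238, plus strand), a glucocorticoid-induced factor that drives amino acid breakdown and lipid use in muscle, heart and liver, showed the largest difference of the 10. It stood at 10.4, 11.6, 4.34 and 13.3 CPM in CD249− and 75.1, 68.1, 56.4 and 106 CPM in CD249+ cells. The lowest CD249+ library lay far above the highest CD249− library, and mouse 10 was highest and mouse 8 lowest in both fractions. The log2 difference was 2.94 (SE 0.33, edgeR adjusted p = 0.000151), with 2.55 to 3.70 in single mice. In all 20 alternative fits Klf15 kept its call, at 2.69 to 3.11.

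**Figure D2:**
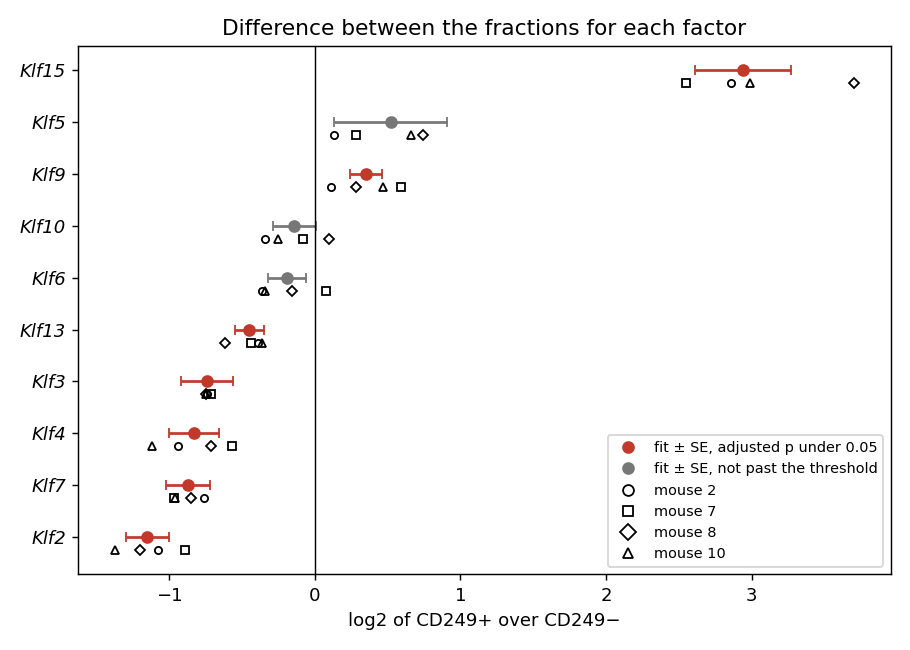
Fitted log2 of CD249+ over CD249− for each factor with its SE (filled points, red where the adjusted p is under 0.05) and the ratio within each mouse (open symbols). Klf15 lies at 2.94 with every mouse above 2.5, Klf2 at -1.15, and the 4 mice of Klf3 fall on one another near -0.74.

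Per kb of merged exons, the order of levels in CD249− cells was led by Klf2 at 538 ± 89.3 CPM per kb, followed by Klf4 at 105 ± 17.1 and Klf6 at 93.3 ± 9.11 (SD, n = 4), whose ranges over libraries overlapped. Klf9, Klf10, Klf3 and Klf7 came next, at 39, 33, 32.4 and 30.5 CPM per kb, with each overlapping its neighbour. Klf13 at 23.5, Klf15 at 3.55 and Klf5 at 0.757 CPM per kb followed without overlap. In CD249+ cells Klf2 again led, at 243 ± 26.4 CPM per kb, above Klf6 at 81.8 ± 11.4, Klf4 at 59.2 ± 12.5 and Klf9 at 49.8 ± 0.512 (SD, n = 4). Klf15 stood at rank 6 of the members there, at 27.3 ± 7.52 CPM per kb (SD, n = 4), with a range over libraries that overlapped those of Klf10 (mean 30.0) and Klf3 (mean 19.5), and Klf5 was again last at 1.09. With the longest transcript in place of merged exons, Klf3 moved to rank 4 in CD249− cells, at 69.8 CPM per kb, and in CD249+ cells to rank 5, at 41.9, with Klf15 at rank 7, at 30.7, because the merged exons of Klf3 (11243 bases) are far longer than its longest transcript (5221 bases).

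**Figure D3:**
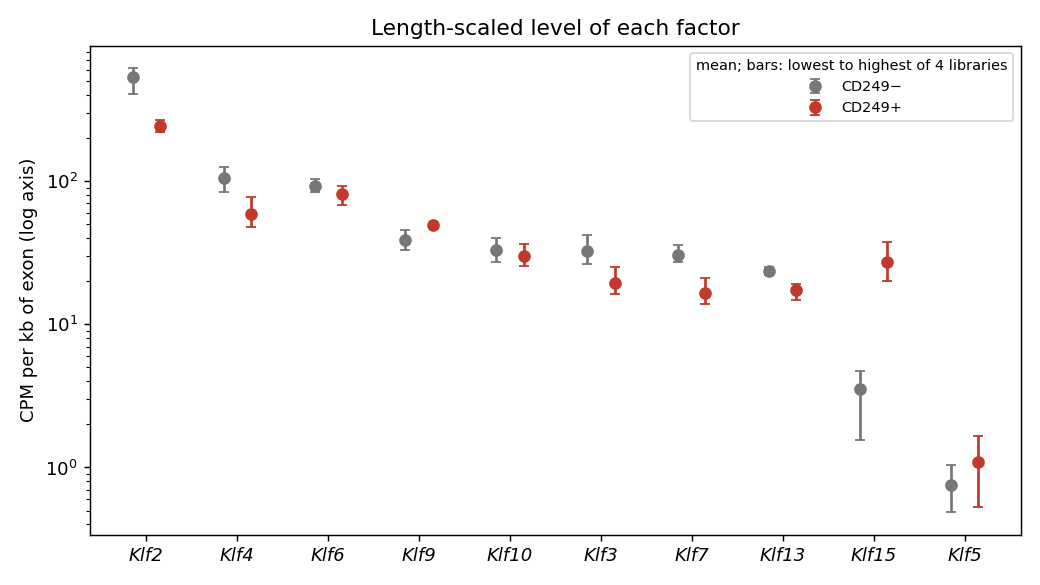
Mean CPM per kb of merged exons for each factor on a log axis, with bars from the lowest to the highest of 4 libraries, in the order of the CD249− means. Klf2 leads in both fractions (538 and 243 CPM per kb), and Klf15 moves from 3.55 to 27.3 CPM per kb.

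The 5 factors that fell did so in the fraction with the lower endothelial sum, which was 2.78 times as high in CD249− as in CD249+ cells. Mouse 2 had the highest endothelial sum in both fractions, 32096 CPM in CD249− cells, where the other mice had 24014 to 24397 CPM, and 14485 CPM in CD249+ cells, where they had 7319 to 8537 CPM. Klf3, Klf7 and Klf13 were also highest in mouse 2 in both fractions, whereas Klf2 and Klf4 were highest in mouse 8. The 3 genes most like Klf7 over the 8 libraries, by Pearson correlation of log2 CPM, were Adgrl4 (0.999), Arap3 (0.998) and Efnb2 (0.996), the first an adhesion receptor of endothelium. These fell by 1.37, 1.51 and 1.03 on the log2 scale. Leukocytes also express Klf2 and Klf13: of 18 leukocyte genes 2 fell, 0 rose and 16 did not pass in edgeR, at a median of -0.80, and 12 fell with mouse as a block. Among all genes tested 13.9% fell, and 17.1% with the block. The summed level of the leukocyte genes overlapped between fractions, at 2750 to 4738 CPM in CD249− and 1978 to 4307 CPM in CD249+ libraries. In the CD249+ library of mouse 10, the highest of its fraction, Lyz2 alone, made by macrophages and also by alveolar epithelium, stood at 3147 CPM. Without Lyz2, left out after its values were seen, the sums were 1547 to 2902 CPM and 1066 to 1644 CPM, which still overlapped and were lower in CD249+ cells of every mouse. Of 8 mesothelial genes 4 fell, 1 rose and 3 did not pass, at a median of -1.90. The mesothelial sum overlapped between fractions, at 62.3 to 209.7 CPM in CD249− and 74.5 to 108 CPM in CD249+ libraries. The part of endothelial, leukocyte or mesothelial RNA in the levels of Klf2, Klf3, Klf4, Klf7 and Klf13 was not tested.

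**Figure D4:**
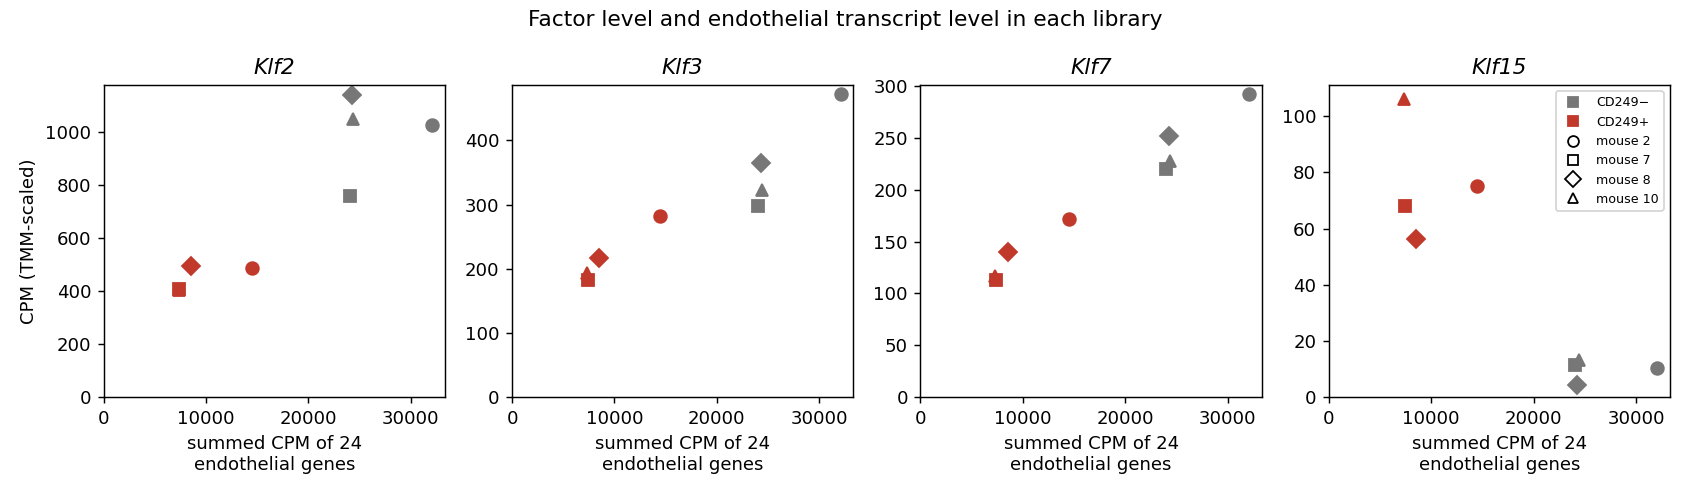
TMM-scaled CPM of Klf2, Klf3, Klf7 and Klf15 (vertical) against the summed CPM of 24 endothelial genes (horizontal) in each of the 8 libraries, coloured by fraction and with a symbol per mouse. For Klf3 and Klf7 mouse 2 is highest on both axes in each fraction, and for Klf15 the CD249+ libraries lie high at low endothelial sums.

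Correlations of this kind are the highest of 9682 or 9683 candidate genes of at least 10 CPM, over 8 libraries that fall into 2 fractions, and they are given as a description. For Klf2 the nearest were Unc13b (0.989), the chromatin remodeller gene Arid1a (0.985) and the flow-sensing channel gene Piezo1 (0.984). For Klf15 they were Eva1b (0.995), the amino acid transporter gene Slc38a5 (0.994) and the neprilysin gene Mme (0.994), which had log2 differences of 0.46, 4.65 and 3.87. For Klf3 they were Ptk2, Sptan1 and Mob3c, each at 0.994. Klf4 was nearest to Stx2 (0.985), Klf13 to Rab5c (0.988) and Klf9 to Tbc1d9b (0.961). Over the 10 members the 3 nearest ranged from 0.930 to 0.999, with Klf10, Klf5 and Klf6, none of them called, below 0.96 throughout.

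The table holds 16 further Klf and Sp genes, of which 10 could be tested. In edgeR 1 rose, 0 fell and 9 did not pass, with a median of -0.11, beside 16.9% higher and 13.9% lower among all genes tested. Klf11, a close relative of Klf10, stood at 74.5 ± 8.08 and 66.9 ± 8.5 CPM (SD, n = 4, edgeR adjusted p = 0.374). The broadly expressed Sp1 (39.9 and 39.3 CPM), Sp2 (48.1 and 46 CPM) and Sp3 (78.8 and 84.7 CPM) gave -0.02, -0.06 and 0.10. Klf12 and Klf8, which like Klf3 recruit C-terminal binding proteins, gave -0.43 and -0.40 and did not pass. The gene that rose was Sp6, from 0.398, 1.58, 1.54 and 1.53 CPM in CD249− to 5.47, 4.32, 2.76 and 3.01 CPM in CD249+ cells (log2 difference 1.62, edgeR adjusted p = 0.0369). It was not called with mouse as a block (adjusted p = 0.0701). Klf1, Klf14, Klf17, Sp7, Sp8 and Sp9 were at or near 0 and were not tested.

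Of 26 tested genes that act above or with the factors, 8 fell and 0 rose in edgeR, beside 13.9% and 16.9% of all genes tested. Their median was -0.17. Hdac7, a class IIa deacetylase that holds MEF2 in check, fell most, from 512 ± 63 to 251 ± 35.3 CPM (SD, n = 4, log2 difference -1.03, edgeR adjusted p = 0.000327). The ubiquitin ligase subunit gene Fbxw7, which targets Klf2 for breakdown, fell by 0.91, the acetyltransferase gene Kat2b by 0.51 and the cavernous malformation gene Pdcd10 by 0.43. In the pathway that induces Klf2, Map3k3 and Mef2c each fell by 0.46, while Map2k5 (-0.18), Mapk7 (-0.15), Mef2a (0.18) and Mef2d (-0.21) did not pass. The corepressor gene Ctbp2, a partner of Klf3, fell by 0.41 and Ctbp1 gave 0.17 (edgeR adjusted p = 0.211). Sin3b fell by 0.29 and Sin3a gave -0.07. The part of endothelial RNA in the levels of these genes was not tested.

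Genes linked in endothelium to Klf2 or Klf4 moved both ways: of 13 tested, 6 fell, 4 rose and 3 did not pass, at a median of -0.69. Among all genes tested 13.9% fell and 16.9% rose. The list holds Cnp, a myelin enzyme gene, in error, and without it 5 of 12 fell at a median of -0.34. The nitric oxide synthase gene Nos3 fell from 138 ± 28.5 to 44.7 ± 15.3 CPM (SD, n = 4, log2 difference -1.63, edgeR adjusted p = 0.000675), and Palmd fell by 1.42, the sphingosine phosphate receptor gene S1pr1 by 1.40, Tek by 1.22 and the water channel gene Aqp1 by 0.90. Thrombomodulin, encoded by Thbd, gave -0.71 and did not pass (edgeR adjusted p = 0.0565), but was called when mouse entered as a block (0.000128). The adrenomedullin gene Adm rose from 18.9 ± 4.55 to 82.3 ± 16.2 CPM (SD, n = 4, log2 difference 2.12), with Adamts4 (2.06), Cdkn1c (1.40) and Adamts1 (0.68). Nos3, S1pr1 and Tek are themselves made mainly by endothelium. The endothelial list, which also holds Tek, had a median of -1.47.

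Several Kruppel-like factors, Klf2, Klf4, Klf6 and Klf10 among them, are also known as immediate early genes, and the other immediate early and dissociation genes are given beside them. Of 27 tested, 13 rose, 0 fell and 14 did not pass in edgeR, at a median of 0.73, and with mouse as a block 20 rose and 1 fell. Among all genes tested 16.9% rose and 13.9% fell, and with the block 19.3% and 17.1%. Egr1 rose from 1681 ± 427 to 4572 ± 1322 CPM (SD, n = 4, log2 difference 1.44, edgeR adjusted p = 0.00214), Btg2 by 1.01, Junb by 0.99 and Dusp1 by 0.57. Jun gave 0.08 and Atf3 0.41, neither past the test, though Atf3 passed with mouse as a block (adjusted p = 0.0026). Beside these, Klf2 and Klf4 moved downward, while Klf6 and Klf10 missed the threshold.

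Glucocorticoid-linked genes are given beside Klf9 and Klf15. Of 15 tested, 3 rose, 1 fell and 11 did not pass, at a median of 0.32, and with mouse as a block 7 rose and 1 fell. Of all genes tested 16.9% rose and 13.9% fell, and with the block 19.3% and 17.1%. Hsd11b1, the enzyme that regenerates active glucocorticoid, rose from 51.7 ± 16.4 to 578 ± 119.6 CPM (SD, n = 4, log2 difference 3.48, edgeR adjusted p = 1.25e-05), Pdk4 by 1.47 and Fkbp5 by 0.66. Sgk1 fell by 0.67, and the receptor gene Nr3c1 gave 0.07 (edgeR adjusted p = 0.575). Tsc22d3, a classical target, gave 0.32 and did not pass.

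Clock genes, which include known regulators of Klf9, Klf10 and Klf15, rose in 8 of 19 cases, with 1 lower and 10 not past the test, at a median of 0.72. With mouse as a block 14 rose and 1 fell. The shares of all genes tested were 16.9% higher and 13.9% lower, and with the block 19.3% and 17.1%. Hlf rose by 2.19 and Rora by 1.18, and Ciart fell by 1.84, from 18.6 ± 1.96 to 5.17 ± 1.73 CPM (SD, n = 4).

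Among genes of amino acid and fatty acid breakdown known to depend on Klf15 in other tissues, 5 of 13 tested rose, 1 fell and 7 did not pass, at a median of 0.34. The shares of all genes tested were 16.9% higher and 13.9% lower. The lysine-breakdown gene Aass rose by 3.18, from 0.883 ± 0.709 to 8.1 ± 3 CPM (SD, n = 4), Acadm by 0.47 and the branched-chain ketoacid dehydrogenase gene Bckdha by 0.44. Prodh, the first enzyme of proline breakdown, fell by 1.13 (edgeR adjusted p = 0.00174), and Bcat2 gave 0.22 without passing.

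Klf factors are also part of the fat cell programme, in which Klf4, Klf5, Klf9 and Klf15 are known to favour and Klf2, Klf3 and Klf7 to oppose differentiation. All 3 of the opposing factors fell, in the fraction with the lower endothelial sum, where 13.9% of all genes tested fell. Of the favouring ones Klf9 and Klf15 rose, as did 16.9% of all genes, Klf4 fell and Klf5 did not pass. The members not placed on either side here were Klf13, which fell, and Klf6 and Klf10, which did not pass. Most alternative fits did not keep the Klf9 call, though the fit with mouse as a block did. Of 19 tested adipogenic genes 5 rose, 3 fell and 11 did not pass, at a median of 0.31. Cebpb rose from 266 ± 68.8 to 758 ± 163 CPM (SD, n = 4, log2 difference 1.51, edgeR adjusted p = 0.000677). Gata3 and Gata2, which hold back fat cell formation, fell by 1.52 and 1.41, and the fatty acid receptor gene Cd36, also made by capillary endothelium, fell by 1.35. These values lie within the range of the endothelial list (-2.05 to -1.21), and the part of endothelial RNA in them was not tested. Pparg, which Klf2 is known to repress and Klf15 to induce, stood at 6.63 ± 1.59 and 9.79 ± 2.54 CPM (SD, n = 4, log2 difference 0.56, edgeR adjusted p = 0.14).

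Klf10 is an early response gene of TGF-beta. Among 11 genes listed for that response, some of which also answer to other signals, 2 rose, 3 fell and 6 did not pass, at a median of 0.06. With mouse as a block 3 rose and 5 fell. Of all genes tested 16.9% rose and 13.9% fell, and with the block 19.3% and 17.1%. Pmepa1 rose by 1.66 and Bambi by 0.96, while Id1 fell by 1.25, the inhibitory Smad6 by 1.28 and Smad7 by 0.73. The falls of Id1 and Smad6 lie within the range of the endothelial list (-2.05 to -1.21), and that of Smad7 does not. Of 18 pericyte and smooth muscle genes, a set that Klf4 is known to repress in part, 15 rose, 0 fell and 3 did not pass in edgeR, at a median of 1.72. Among these Kcnj8 rose by 2.08 and Cspg4 by 2.24. The sum of the 18 genes was 546 to 1280 CPM in CD249− and 1841 to 2914 CPM in CD249+ libraries. The part of pericyte, smooth muscle or epithelial RNA in the levels of Klf9 and Klf15 was not tested.

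**Figure D5:**
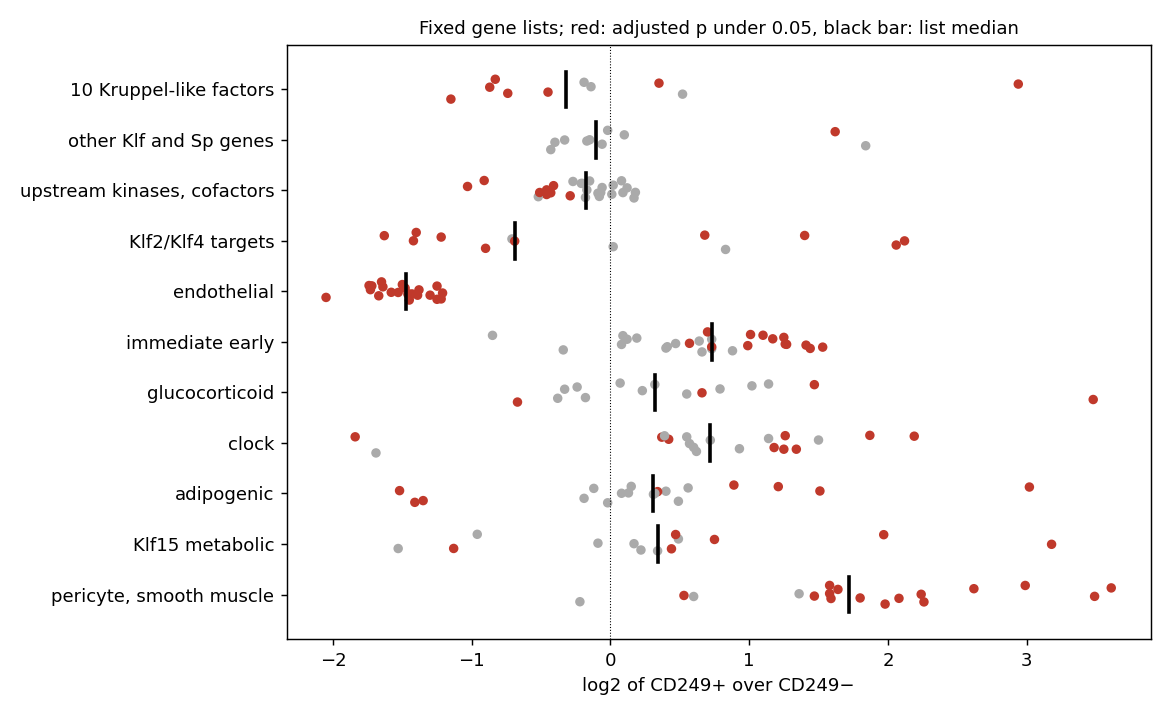
Log2 of CD249+ over CD249− for each tested gene of the lists (points, red where the adjusted p is under 0.05) with the list median as a black bar. Endothelial genes lie between -2.05 and -1.21, immediate early genes have a median of 0.73, and the 10 factors spread from -1.15 to 2.94.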

How the data were processed

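Libraries were made from 10 ng of total RNA with SMART-Seq V4 and Nextera XT and read as single 75 bp reads, per the labels' protocols. The deposited values are estimated counts per gene (12% not whole), 1 column per library. The submitters' processing notes name STAR 2.6.1 and RSEM 1.2.28 without a role and the human build GRCh38, while the identifiers are mouse genes. No source used here names a mouse build for the counting, and coordinates are from GENCODE M21 by identifier (99% found ignoring the version). The 92 spike-in entries are 0 and were left out.

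Counts were rounded, filtered by filterByExpr (14524 genes kept), scaled by TMM and tested with edgeR 4.0.16 (R 4.3.3), fraction as the only term, two-sided, Benjamini-Hochberg over all genes. The code was tested on simulated data. Fractions of a mouse share a lung, and deviations from group means correlated at 0.132 to 0.285 within and -0.212 to 0.0515 between mice across genes, so the samples are paired. The reported tests carry no block, and pairing entered as an alternative, a mouse block. The rest, all without a block, were other scalings, DESeq2 1.42.0, limma 3.58.1, no filter, left-out libraries or mice, and mice 2 and 10 or 7 and 8 alone.

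The members, lists and tests were chosen with earlier results of these data known. Genes named from a list are up to 4 called members with the smallest p, and further ones were chosen after their values were seen. The rule for likeness was the 3 highest correlations.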

Additional observations from a re-analysis of the deposited data

Results flagged for a closer look

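Of 58 groups of 4 libraries examined, 5 held a library set apart from the other 3 by Dixon's test, which chance does in about 1 of 20 groups. In mouse 2 the endothelial sum was high in both fractions, at 32096 CPM in CD249− cells (others 24014 to 24397) and 14485 CPM in CD249+ cells (others 7319 to 8537). In mouse 10 the epithelial sum was high in both fractions, at 1127 CPM in CD249− cells (others 437 to 529) and 10825 CPM in CD249+ cells (others 675 to 1288). Sp6 stood at 0.398 CPM in the CD249− library of mouse 2, below 1.53 to 1.58 CPM in the other 3. None of the 10 factors had a library set apart in either fraction.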

How the results depend on the processing

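Klf2 and Klf15 kept their direction and call in all 20 alternative fits, and Klf3, Klf4, Klf7 and Klf13 in 18, 19, 19 and 18. With mouse as a replicate block 5298 genes, and 2 higher and 5 lower members, were called, and no member's call changed. Leaving out a library or a mouse gave 2978 to 4458 called genes (fewest without mouse 8), 1 to 2 higher members and 4 to 5 lower members. With library size only, 1 member was higher, Klf9 being lost. Mice 2 and 10 alone, low in haemoglobin transcripts (12.1 to 26.8 CPM), gave 668 called genes (570 higher, 98 lower), 1 higher and 2 lower members. Mice 7 and 8 alone, at 129 to 502 CPM, gave 3028 called genes (1777 higher, 1251 lower), 1 higher and 3 lower members, and Klf10 changed sign to 0.06 (adjusted p = 0.882). Both of these fits hold 2 mice. In mice 2 and 10 Klf3, Klf7 and Klf13 kept -0.74, -0.84 and -0.38 without passing (adjusted p = 0.209, 0.129 and 0.234), and in mice 7 and 8 Klf4 and Klf13 kept -0.62 and -0.49 (0.101 and 0.0624). The cause of the other changes was not tested. Depth limits Klf5 most, at 76 to 251 counts per library.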

Other observations

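Klf9 was very even among the CD249+ libraries. Its coefficient of variation there was 1.03%, at or below which lay 8 of 9964 genes of at least 10 CPM (median 13.8%), while in CD249− cells it was 14.2%. Klf3 had the same kind of evenness between fractions: 12 of the 9964 genes had within-mouse log2 differences as close together or closer. Both genes were picked out after their values were seen, and no test was made of either pattern.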
